A study of Mus musculus with 30 samples.

Results

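The thymus was compared with the draining lymph node in single-cell RNA libraries made with Seq-Well, which captures each cell in a tiny well next to a bead that tags its transcripts. The comparison took 2 thymus libraries and 9 lymph node libraries of the 30 libraries in the series, chosen by the organ in their labels. All mice were young adult male DBA1/J mice, an inbred strain that is susceptible to collagen-induced arthritis (CIA). Mice of the CIA group had received 100 µg of bovine collagen II in complete Freund's adjuvant and a booster on day 20, and the healthy mice were not immunized with collagen. The thymus of the healthy mouse H6 (arthritis score 0) and that of the CIA mouse S1 (score 8) gave 1 library each. Lymph node came from 4 healthy mice in 5 libraries (score 0) and from 3 CIA mice in 4 libraries (scores 3 to 8). H6 and S1 gave both organs. The library titles end in CIA or 2CIA, whose meaning the labels do not give. In thymus this ending, the disease state and the mouse cannot be told apart. Organs had been frozen, thawed, strained and freed of red cells by lysis.

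The thymus is where T cell precursors divide, cut and join their antigen receptor genes with the Rag recombinase, pass through a stage with both Cd4 and Cd8, and are selected on their receptor. Cells that mature there switch on receptors for exit and homing and leave for the blood. The lymph node collects such mature T cells together with B cells and antigen-presenting cells, and most of its lymphocytes are at rest.

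The thymus libraries held 684 barcodes and 7886790 summed units (H6) and 439 barcodes and 4844200 summed units (S1). Each lymph node library had between 153 and 454 barcodes and a total of 1064463 to 3319362 units. A unit is the deposited value of a gene in a barcode, which the authors had smoothed over neighbouring barcodes, and levels are given as UPM, the units of a gene divided by the library's total and scaled to 1e6. Some barcodes of a library had identical profiles, and H6 thymus held 461 distinct ones and S1 thymus 282. No barcode string was shared in any of the 55 pairs of libraries. On the log2 scale the thymus libraries correlated at 0.87 across the tested genes, pairs of lymph node libraries at 0.72 to 0.88, and pairs across organs at 0.28 to 0.62, where genes are not independent replicates.

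The labels of the organs were checked against marker genes. A barcode was called a T-marker barcode where the sum of Cd3d, Cd3e and Cd3g exceeded that of a set of B cell genes that included Cd79a, Cd79b and Ms4a1, and a B-marker barcode in the opposite case. All barcodes of both thymus libraries were T-marker barcodes, and the thymocyte genes Rag1, Dntt and Arpp21 were present in both. In lymph node the share of T-marker barcodes was 22.5% to 94.3% and that of B-marker barcodes 4.43% to 72.9%. Little of the stroma markers that could be read was found in either organ. Of 10 listed thymic epithelium genes 2 were not analysed here and 6 were at 0 in both thymus libraries, and the summed level of the list was 20.0 and 20.4 UPM. Of 8 listed lymph node stroma genes 4 were not analysed here and 4 were at 0 in all 11 libraries. Of 6 fibroblast genes 5 were at 0 in thymus. Because the libraries differ in the cells they hold, a lower level of a gene can mean fewer cells of a type or less RNA per cell, which these sums cannot tell apart.

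Of 5443 genes whose mean over the mice reached 25 UPM, 950 (17.5%) were called higher and 1148 (21.1%) lower in thymus. Calls rest on limma at an adjusted p under 0.05, with 2 thymus and 7 lymph node mice. Both thymus libraries lay above all 9 lymph node libraries for 1259 genes (23.1%) and below them for 988 genes (18.2%). Of these, 890 were also called higher and 930 called lower. All differences are given as thymus minus lymph node on log2(UPM + 10), a scale that understates the change of low genes. The median difference of all tested genes was 0.26. With mouse as a block, which uses the pairing of organs in H6 and S1, 201 genes were called higher and 500 lower. That fit left 3 residual degrees of freedom, mostly from the repeat lymph node libraries of single mice, H4 and S7. Its adjusted p therefore says little of how the organ difference varies between animals. Scaling to the units of protein-coding genes in place of all units gave 375 higher and 1370 lower, moving the share of higher calls from 45.3% to 21.5% and the median difference to -0.15. Without thymus H6 there were 285 higher and 613 lower calls, and without thymus S1 431 and 971, with the lone thymus library assumed to vary like the lymph node.

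The members just at the edge of the range differed little. Eif4g2, a translation factor, was at 393 and 332 UPM in thymus against a highest lymph node value of 331 UPM, and Srsf2, a splicing factor, just missed the range with 372 and 321.62 against 321.65 UPM. At the lower edge, Gm7924 was at 21.3 and 77.8 UPM against a lowest lymph node value of 78.0 UPM. Gm14034 just missed it with 12.6 and 32.8 against 32.79 UPM.

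**Figure D1:**
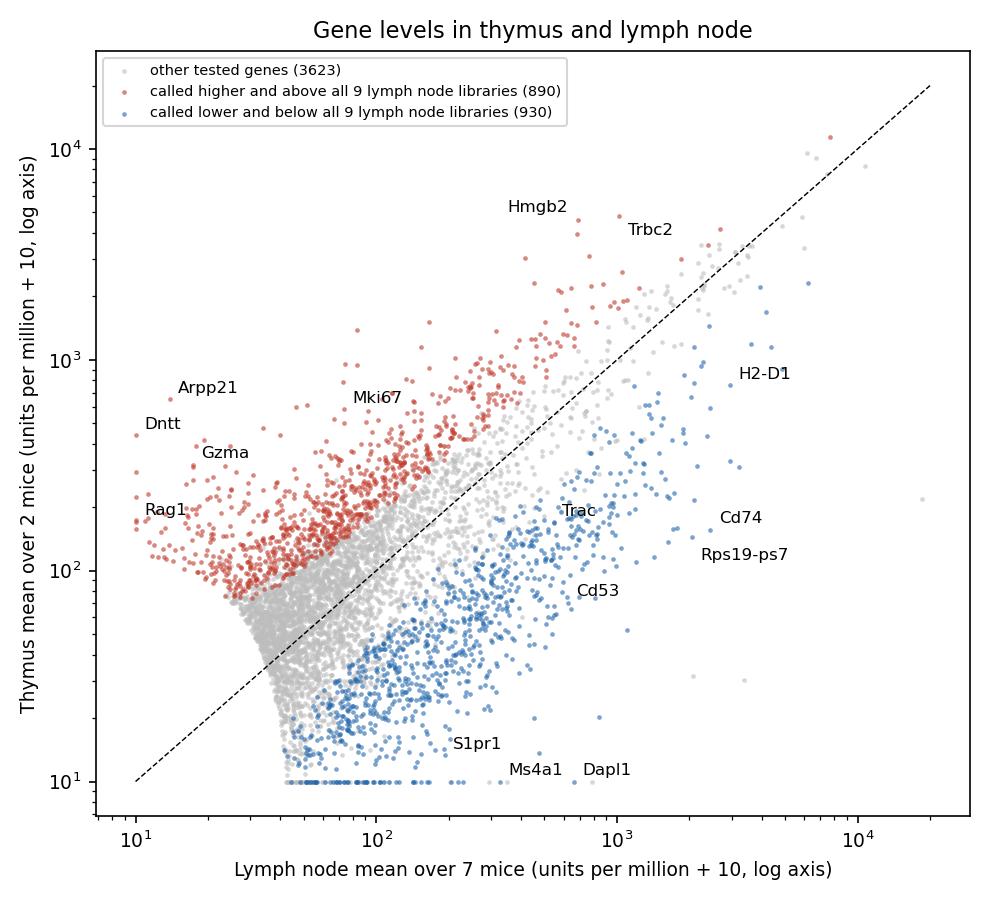
Mean level of each of the 5443 tested genes in lymph node (x axis, 7 mice) and thymus (y axis, 2 mice), as UPM + 10 on log axes, with the dashed line marking equal levels. The 890 genes called higher and above all lymph node libraries are red, the 930 called lower and below them are blue. Dntt and Arpp21 lie at the left edge, Dapl1 and Ms4a1 at the lower edge.

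Most tested genes of a list of thymocyte genes were higher. Some members, such as Tcf7 and Satb1, were also present in every lymph node library. Of 28 listed genes 22 passed the filter of 25 UPM, and of these 15 were called higher, 0 were called lower and 18 lay above all lymph node libraries, with a median difference of 1.50. A gene that is high in 1 organ alone passes the filter through that organ. The counts of list members, and the adjusted p of members at 0 in an organ such as Rag1 and Dntt, therefore describe these libraries. The counts are read against the shares of all tested genes. Rag1, which encodes the catalytic part of the recombinase, was at 242 UPM in H6 thymus and 79.7 UPM in S1 thymus and listed at 0 in all 9 lymph node libraries (adjusted p = 0.0011). It lies on chromosome 2 at 101638252 to 101649532 (RefSeq annotation of GRCm38.p6). Dntt, the terminal transferase that adds bases at receptor gene joints, was at 519 and 343 UPM in thymus and at 0 in all 9 lymph node libraries (adjusted p = 9.5e-06). Dntt lies on chromosome 19 at 41029275 to 41059525. Both genes were present in each thymus library and in no lymph node library, so no fold is given. Rag2 and Ptcra, the partner of Rag1 and the surrogate alpha chain of the early receptor, were under the filter at 27.9 and 14.9 UPM and at 37.2 and 14.7 UPM, and were likewise at 0 in lymph node.

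Other genes of this list were present in lymph node at lower levels. Arpp21, a phosphoprotein gene of immature thymocytes, was at 684 and 597 UPM in thymus and above 0 in 1 lymph node library (27.3 UPM in H7), a difference of 5.75 ± 0.63 (SE). Cd24a, a surface protein lost on maturation, was at 353 and 289 UPM against 0 to 113 UPM (median 50.9), a difference of 2.30 ± 0.39. Tcf7, the T lineage factor TCF-1, was at 1043 and 707 UPM against 136 to 380 UPM, a difference of 1.88 ± 0.32 (adjusted p = 0.00022). Tcf12, an E protein that binds E-box DNA, differed by 1.88 ± 0.34, and Satb1, a chromatin organizer, by 1.42 ± 0.29. All 5 genes lay above every lymph node library. The members without a call were Cd4, Cd8b1, Bcl11b, Lef1, Notch1, Ets2 and Tespa1. The mouse block called 6 members, and Cd24a and Tcf12 were not (adjusted p = 0.11 and 0.36). With protein-coding scaling 10 were called, without thymus H6 6 and without thymus S1 8.

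The windows around the start sites of Rag1 (chr2:101649483-101649782, minus strand) and Dntt (chr19:41029025-41029324, plus strand) are shown because these genes were at 0 in every lymph node library. They are RefSeq sequences of GRCm38.p6 from 250 bases before to 50 bases after a start site, 5′ to 3′. Capitals mark the E-box spellings CAGCTG and CAGGTG on either strand.
Rag1: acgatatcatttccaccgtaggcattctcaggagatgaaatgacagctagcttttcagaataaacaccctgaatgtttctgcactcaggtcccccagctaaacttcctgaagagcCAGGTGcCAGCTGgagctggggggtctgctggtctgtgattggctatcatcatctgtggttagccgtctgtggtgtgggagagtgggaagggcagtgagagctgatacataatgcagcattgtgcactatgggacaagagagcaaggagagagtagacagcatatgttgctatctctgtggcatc
Dntt: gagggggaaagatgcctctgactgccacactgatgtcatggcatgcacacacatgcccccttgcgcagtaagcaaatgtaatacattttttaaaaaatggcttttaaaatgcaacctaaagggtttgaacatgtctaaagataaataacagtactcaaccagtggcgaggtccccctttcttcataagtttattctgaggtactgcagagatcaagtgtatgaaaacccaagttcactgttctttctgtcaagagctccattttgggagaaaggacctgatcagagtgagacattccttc
The Rag1 window held 2 matches and the Dntt window 0. Of the 22 tested thymocyte genes 15 had a window, some of them several, and 19 of their 35 windows (54.3%) held a match, against 32.9% of all 32851 windows in the table and 26.5% of the 4088 windows of tested genes. Arpp21 alone gave 9 of the 35 windows and 7 of the 19 with a match, and without it the share was 12 of 26 (46.2%).

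Only 6 of the 1259 genes above the range were at 0 in all 9 lymph node libraries, namely Rag1, Dntt, Chrna9, Gtf2h4, Nebl and Pbk, the last 4 named here after their values were seen. Chrna9, a nicotinic receptor subunit, was at 183 and 144 UPM in thymus and listed at 0 in the other 28 libraries of the series as well. Gtf2h4, a subunit of the transcription factor TFIIH, was at 270 and 297 UPM, and Nebl, a nebulin family member, at 242 and 185 UPM. Pbk, a mitotic kinase, was at 174 and 121 UPM. Over all organs, 482 of the 1259 genes were also above each of the 19 libraries from blood, joint, lung, muscle, skin and spleen. They made up 8.86% of all tested genes, and of the thymocyte list 12 of 22 tested genes, Rag1, Dntt and Arpp21 included.

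Genes of the T cell receptor and its proximal signalling did not move as a block. Of 20 tested members, 8 were called higher (Cd3d, Cd3g, Cd247, Trbc1, Trbc2, Lck, Lat and Thy1), 3 lower (Trac, Fyn and Cd2) and 9 neither, with a median difference of 0.77. The constant regions of the beta chain led the rise. Trbc1 was at 4200 and 3654 UPM in thymus against 406 to 1174 UPM in lymph node, a difference of 2.60 ± 0.31 (adjusted p = 1.1e-05). Trbc2 was at 5157 and 4448 UPM against 645 to 1540 UPM, a difference of 2.29 ± 0.29. Trbc1 and Trbc2 are near-identical, so reads may have been split between them, but both lay above every lymph node library. The constant region of the alpha chain, Trac, went the other way, with 244 and 77.2 UPM against 259 to 814 UPM (median 485), a difference of -1.82 ± 0.37 (adjusted p = 0.00089). Without thymus S1 the call on Trac was lost.

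Of the signalling members, Thy1, a surface glycoprotein of T cells, differed by 2.20 ± 0.35. Lat, the adaptor that links the receptor to its pathways, was at 730 and 688 UPM against 105 to 363 UPM, a difference of 1.77 ± 0.35. Cd3g, a signalling chain of the receptor, differed by 1.52 ± 0.31. The kinase Fyn was at 29.2 and 16.9 UPM against 36.6 to 182 UPM, and the adhesion protein Cd2 at 93.3 and 88.1 UPM against 180 to 345 UPM. The mouse block called 5 members higher and 2 lower, and Lat (adjusted p = 0.14) and Fyn (adjusted p = 0.18) were not. Fyn was also not called without thymus H6, thymus S1 or lymph node S7. Of 10 listed genes induced by receptor signals 6 passed the filter, and 1 was called in each direction. Cd69, an early activation marker that also holds cells in tissue, was at 103 and 161 UPM against 226 to 539 UPM, a difference of -1.29 ± 0.31, and lost its call without thymus H6. Itm2a was at 99.4 and 78.0 UPM, inside the lymph node range of 0 to 116 UPM (adjusted p = 0.049), and kept its call in 6 of 24 alternatives.

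**Figure D2:**
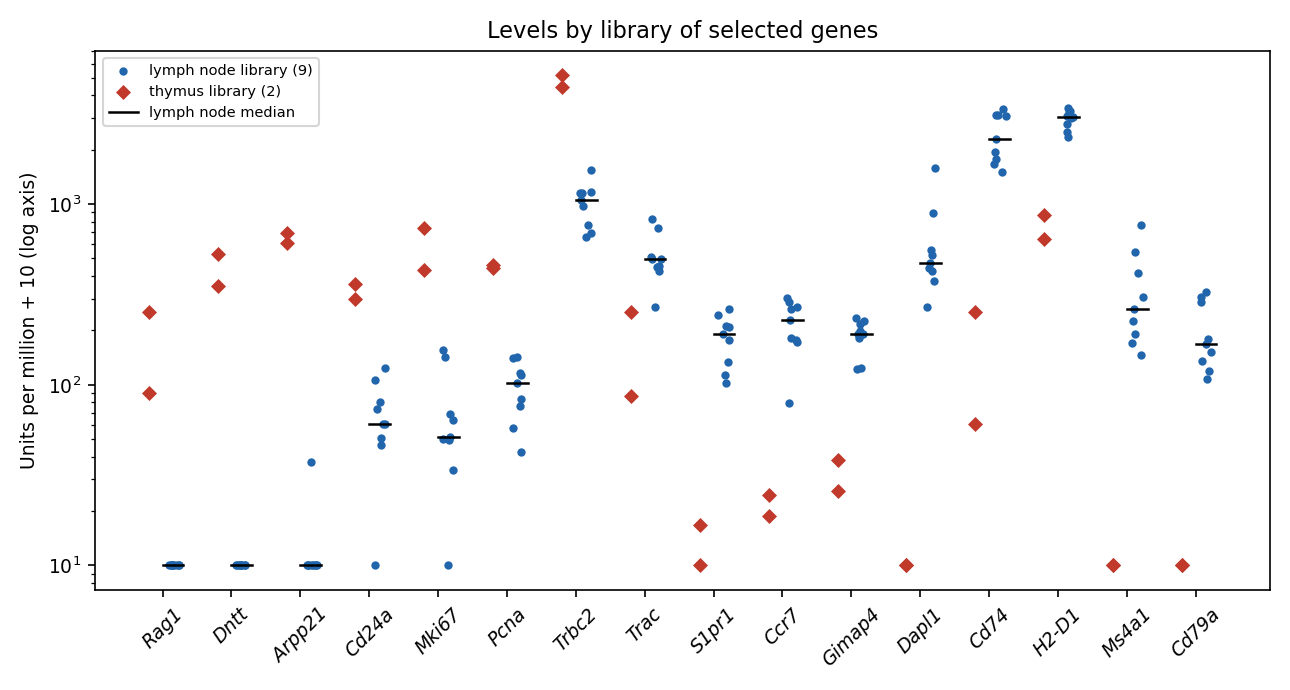
Level of 16 genes in each library, as UPM + 10 on a log axis, with the 2 thymus libraries as red diamonds, the 9 lymph node libraries as blue points and the lymph node median as a bar. A value of 0 sits at 10. The organs do not overlap for any of these genes, and Trac lies on the opposite side from Trbc2.

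Genes of the dividing cell rose. Of 15 listed S phase genes and 19 listed G2 and mitosis genes, 13 and 15 passed the filter. All of these were called higher and lay above every lymph node library, with median differences of 2.74 and 3.46. Over all tested genes 17.5% were called higher and 23.1% lay above the range. Some members passed the filter through thymus, such as Gmnn and Cenpe with lymph node means of 15.0 and 7.32 UPM, so the counts describe these libraries. The summed level of the S phase list was 3179 and 3257 UPM in thymus against 111 to 657 UPM in lymph node, and that of the mitosis list 13379 and 8857 against 910 to 2456 UPM. Dut, which clears dUTP from the nucleotide pool, was at 702 and 846 UPM against 0 to 105 UPM, a difference of 3.60 ± 0.49 (adjusted p = 2.7e-05). Pcna, the sliding clamp of DNA polymerase, was at 433 and 452 UPM against 32.6 to 133 UPM, a difference of 2.34 ± 0.42. Gmnn, which blocks a second round of replication, differed by 3.47 ± 0.61. The nucleotide enzymes Rrm2, Tyms and Rrm1 differed by 3.48 ± 0.66, 3.56 ± 0.68 and 2.88 ± 0.61.

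Among the mitosis genes, Hmgb2, a DNA-bending protein, was at 5482 and 3702 UPM against 362 to 1012 UPM, a difference of 2.74 ± 0.28 (adjusted p = 2.4e-06). Stmn1, which destabilizes microtubules, was at 508 and 302 UPM against 0 to 25.3 UPM, a difference of 4.52 ± 0.58. Mki67, the proliferation marker Ki-67, was at 726 and 420 UPM against 0 to 145 UPM, a difference of 3.14 ± 0.50. The kinetochore genes Cenpe and Cenpa differed by 4.09 ± 0.67 and 2.83 ± 0.47, and Tubb5, a tubulin, by 1.91 ± 0.24. H6 thymus was above S1 thymus for each of these genes, with no test. All 13 S phase genes and 11 of the 15 mitosis genes were also above the 19 libraries of the other organs. Under the block 7 S phase genes and 11 mitosis genes were called, and Rrm2, Rrm1, Mki67 and Cenpa were not (adjusted p = 0.053, 0.077, 0.054 and 0.12). Without thymus H6 the counts were 6 and 8, with Cenpe no longer called, and without thymus S1 7 and 15.

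Start site windows of 3 of these genes are shown as examples that hold matches: Rrm1 (chr7:102441445-102441744, plus strand), Mki67 (chr7:135716330-135716629, minus strand) and Hmgb2 (chr8:57511593-57511892, plus strand). Capitals mark, on either strand, the E2F core spelled TTCCCGC or TTGGCGC, the cell cycle homology region TTTGAA (CHR) and the CCAAT box.
Rrm1: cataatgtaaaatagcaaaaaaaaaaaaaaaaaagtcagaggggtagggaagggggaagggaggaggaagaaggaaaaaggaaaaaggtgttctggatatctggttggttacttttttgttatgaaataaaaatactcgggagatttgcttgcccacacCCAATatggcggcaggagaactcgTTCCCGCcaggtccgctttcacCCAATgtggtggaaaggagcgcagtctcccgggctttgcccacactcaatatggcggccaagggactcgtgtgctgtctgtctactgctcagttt
Mki67: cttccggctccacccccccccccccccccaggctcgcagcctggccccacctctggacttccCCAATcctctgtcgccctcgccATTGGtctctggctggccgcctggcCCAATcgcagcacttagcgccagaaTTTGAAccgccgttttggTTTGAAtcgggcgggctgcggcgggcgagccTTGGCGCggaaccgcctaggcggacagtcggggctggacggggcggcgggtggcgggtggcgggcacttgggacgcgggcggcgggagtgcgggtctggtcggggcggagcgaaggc
Hmgb2: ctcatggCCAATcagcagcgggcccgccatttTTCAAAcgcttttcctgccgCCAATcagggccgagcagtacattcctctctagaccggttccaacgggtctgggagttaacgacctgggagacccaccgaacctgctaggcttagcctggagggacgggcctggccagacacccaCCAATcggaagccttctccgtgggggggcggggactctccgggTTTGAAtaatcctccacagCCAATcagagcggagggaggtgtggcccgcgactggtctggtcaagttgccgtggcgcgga
The Rrm1 window held 1 E2F and 2 CCAAT matches, the Mki67 window 1 E2F, 2 CHR and 3 CCAAT matches, and the Hmgb2 window 2 CHR and 4 CCAAT matches. These windows are not typical of the named genes. The windows of Dut, Pcna, Rrm2 and Tyms held 0 E2F matches, and of the 13 mitosis windows only that of Mki67 held 1. Windows were found for 11 of the 13 S phase genes and 13 of the 15 mitosis genes. An E2F match was in 50.0% of the S phase windows and 7.69% of the mitosis windows, against 6.81% of all windows and 13.6% of the windows of tested genes. A CHR match was in 8.33% and 61.5%, against 17.9% of all windows and 12.7% of those of tested genes. A CCAAT match was in 83.3% and 84.6%, against 37.4% and 38.2%. Of 11 E2F matches in the S phase windows 1 overlapped a CCAAT match. A match is a run of letters and was not tested for binding.

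Chromatin genes followed the same direction, with 14 of the 16 members that passed the filter (18 listed) called higher, 0 lower and a median difference of 2.08. Hmgb1, a nuclear protein related to Hmgb2, was at 3567 and 2473 UPM against 250 to 568 UPM, a difference of 2.89 ± 0.29 and the smallest p of all higher genes (adjusted p = 2.2e-06). The histone variants H2az2 and H2az1 differed by 3.24 ± 0.34 and 2.09 ± 0.35. Ezh2, the methyltransferase of the Polycomb complex, was at 735 and 465 UPM against 0 to 90.1 UPM, a difference of 3.75 ± 0.53. Cbx3, which binds methylated histone, differed by 1.92 ± 0.33. Smarca4, a remodelling motor, differed by 2.27 ± 0.41. Outside the list, the linker histone H1f5 differed by 3.59 ± 0.46, Cbx1, a relative of Cbx3, by 2.60 ± 0.32 and Anp32e, a chaperone that removes H2az histones, by 2.65 ± 0.34. The list members without a call were Macroh2a1 and H3f3b. With protein-coding scaling 9 of the 16 were called, under the mouse block 10 and without thymus H6 7. H2az1 and H1f5 lost their call under the mouse block (adjusted p = 0.057 and 0.089).

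Nuclear genes of oxidative phosphorylation, the respiratory chain and ATP synthase of mitochondria, were mostly higher. Of 84 listed genes 77 passed the filter, and of these 59 were called higher, 0 lower and 64 lay above every lymph node library, with a median difference of 1.44. The group held 3.61% and 3.54% of all units in thymus against 1.08% to 1.68% in lymph node. Uqcr11, of complex III, was at 764 and 805 UPM against 54.9 to 190 UPM, a difference of 2.59 ± 0.39. Cox6a1, of cytochrome oxidase, was at 874.5 and 1024 UPM against 185 to 504 UPM, a difference of 1.92 ± 0.28. The other members with the smallest p, Cox7a2, Atp5h, Cox7b and Atp5j2, differed by 1.97 ± 0.31, 1.72 ± 0.25, 1.67 ± 0.26 and 1.62 ± 0.26. Atpif1, the inhibitor of ATP synthase and no member of the list, was at 1021 and 1253 UPM against 63.9 to 250.3 UPM, a difference of 2.93 ± 0.31. Txn1, the redox protein thioredoxin, was at 694 and 680 UPM against 73.3 to 125 UPM, a difference of 2.59 ± 0.30. Lockd, a noncoding RNA beside the cell cycle inhibitor gene Cdkn1b, differed by 3.70 ± 0.45. With protein-coding scaling 31 of the 77 were called, with mouse as a block 11, without thymus H6 32 and without thymus S1 39.

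**Figure D3:**
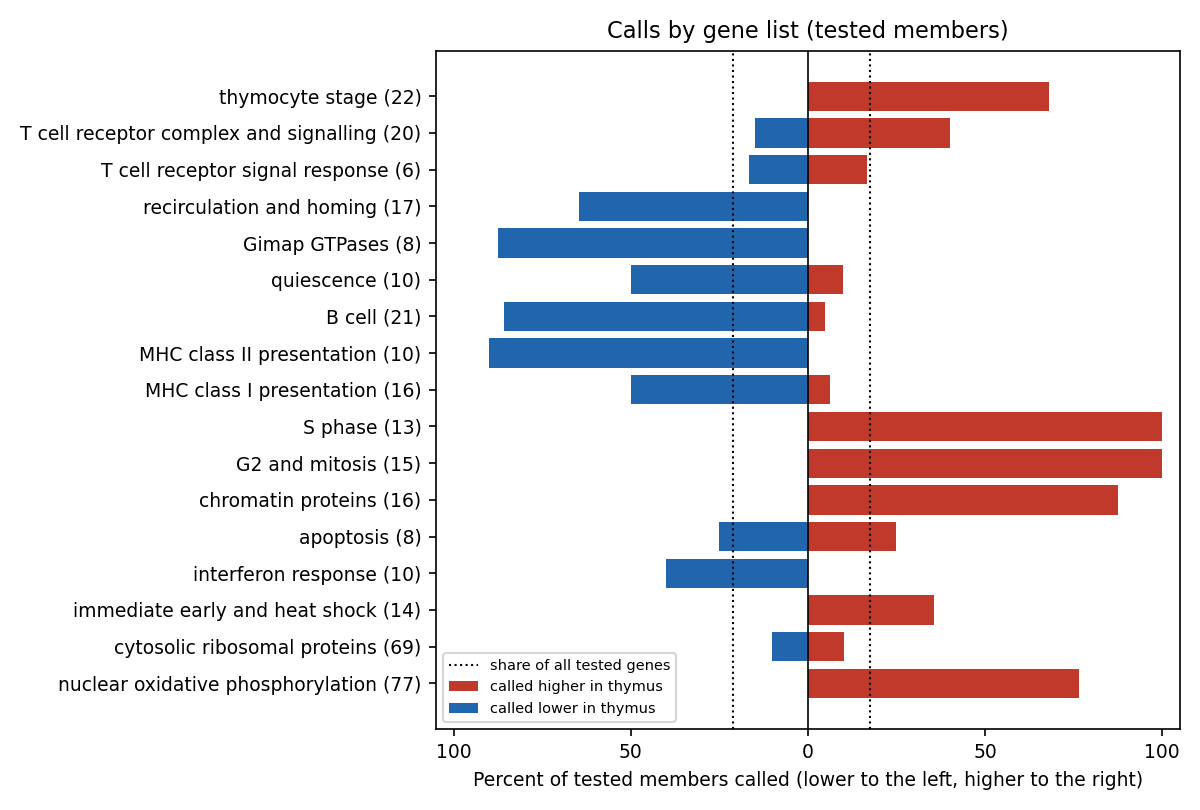
Share of the tested members of each gene list (number in parentheses) called higher in thymus (red, to the right) or lower (blue, to the left). Dotted lines mark the shares among all tested genes, 17.5% higher and 21.1% lower. The S phase and G2 and mitosis lists reach 100% on the right, and the MHC class II, Gimap and B cell lists lie on the left.

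Most tested genes of a list of recirculation and homing were lower. Of 18 listed genes 17 passed the filter, and of these 11 were called lower and 0 higher, with a median difference of -1.58. The count includes members given no exit or homing role here, among them Dapl1, Ms4a4b and Ms4a6b. Of the 17, 10 lay below every lymph node library and 7 overlapped the range. S1pr1, the sphingosine phosphate receptor that T cells need for exit, was at 6.72 and 0 UPM in thymus against 92.7 to 253 UPM in lymph node (median 181), a difference of -3.85 ± 0.37 (adjusted p = 1.7e-06). Ccr7, the chemokine receptor for lymph node entry, was at 8.75 and 14.7 UPM against 69.2 to 294 UPM, a difference of -3.23 ± 0.43. Dapl1 was at 0 in both thymus libraries and at 258 to 1580 UPM in lymph node (adjusted p = 3.3e-07), and passed the filter through lymph node alone. Ms4a4b and Ms4a6b, membrane proteins of mature T cells, differed by -2.85 ± 0.34 and -2.35 ± 0.34. Other called members were Klf2, Il7r, Itgb7, Cxcr4 and Ly6c1. The mouse block called 7 of the 17.

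The Gimap genes, a family of GTPases tied to the survival of resting lymphocytes, fell together, with 7 of 8 called lower and a median difference of -1.64. Gimap4 was at 28.5 and 15.7 UPM against 113 to 225 UPM, a difference of -2.51 ± 0.36, and Gimap6 and Gimap3 differed by -2.28 ± 0.33 and -2.90 ± 0.47. Gimap1 and Gimap8 also lay below every lymph node library, while Gimap5 and Gimap7 were called lower but overlapped it. Gimap9 was not called. Of 10 quiescence genes 5 were called lower and 1 higher. Slfn2, needed for T cell quiescence, differed by -2.56 ± 0.42, Foxp1 by -1.27 ± 0.30, Btg1 by -1.06 ± 0.28, Txnip by -1.14 ± 0.35 and Pdcd4 by -0.84 ± 0.26. Btg2, a relative of Btg1, was at 352 and 224 UPM against 99.1 to 196 UPM, a difference of 0.86 ± 0.33 (adjusted p = 0.046), and kept its call in 10 of 25 alternatives. Without thymus H6 3 Gimap genes and 3 lower quiescence genes were called, and without thymus S1 5 and 2. Gimap8, Txnip and Pdcd4 lost their call in both cases, Gimap1, Gimap5 and Btg2 without H6 and Btg1 without S1. With mouse as a block 3 Gimap genes and 1 quiescence gene were called. Gimap1, Gimap5, Gimap8, Slfn2, Btg1, Txnip, Pdcd4 and Btg2 were then at an adjusted p of 0.17, 0.17, 0.10, 0.066, 0.090, 0.27, 0.19 and 0.13.

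Most B cell genes were missing from thymus. Of 25 listed genes 21 passed the filter, and of these 18 were called lower and 1 higher, with a median difference of -3.00, and 19 of the 25 were at 0 in both thymus libraries. Ms4a1, which encodes CD20, was at 0 in thymus and at 136.5 to 760 UPM in lymph node (median 253). Cd79a and Cd22, parts and regulators of the B cell receptor, were at 0 against 97.7 to 317.5 UPM and 46.0 to 213 UPM. The B lineage factor Ebf1 was at 0 against 57.3 to 193 UPM and the heavy chain Ighd at 0 against 118.5 to 346 UPM. Mef2c, a transcription factor of B cells outside the list, was at 0 against 62.9 to 303 UPM. Light chain constant regions were close to 0, with Iglc2 at 0 and 20.6 UPM against 446 to 1433 UPM and Iglc3 at 0 and 7.43 UPM against 277 to 718 UPM (adjusted p = 3.3e-07 and 9.0e-08). These 2 genes are near-identical and may share reads. Median values of these lists include genes at 0 in one organ, whose fitted difference depends on the added 10 UPM.

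Ighm and Ralgps2 were the B cell genes without a call, Ighm with 181 and 253 UPM in thymus against 188 to 763 UPM. Ly6d ran against the list, with 752 and 712 UPM in thymus against 165 to 391.9 UPM, a difference of 1.64 ± 0.33. This surface protein is known from early B cells and from thymocytes. In the T-marker barcodes alone its difference was 2.15. Under the mouse block Ly6d and Blnk were not called (adjusted p = 0.072 and 0.057), and 12 members were called lower.

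Most MHC class II genes and 8 of 16 class I genes were lower. Of 10 MHC class II genes 9 were called lower, 7 of them below every lymph node library, with a median difference of -2.60. The invariant chain Cd74 was at 50.8 and 242 UPM in thymus against 1498 to 3349 UPM, a difference of -4.24 ± 0.41 (adjusted p = 1.5e-06). The class II chains H2-Aa and H2-Ab1 differed by -4.01 ± 0.43 and -3.66 ± 0.44, and the peptide loading genes H2-DMb2 and H2-DMa by -3.07 ± 0.36 and -2.39 ± 0.35. H2-Ob was at 0 in thymus. H2-Oa was the member without a call. For Cd74, H2-Aa and H2-Ab1, S1 thymus lay above H6 thymus and the organs did not overlap.

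Class I genes are expressed by nearly all nucleated cells. Of 16 tested members 8 were called lower, 7 were not called and 1 was higher. The 8 lower members all lay below every lymph node library, and the median difference of the 16 was -0.89. H2-D1 was at 632.5 and 859 UPM against 2329 to 3411 UPM, where the mean over lymph node mice was 2952 ± 264 (SD, n = 7), a difference of -1.98 ± 0.21 (adjusted p = 3.3e-06). H2-K1, the other classical chain, was at 333 and 476 UPM against 1094 to 1596 UPM, a difference of -1.61 ± 0.23. B2m, the shared light chain, was at 612 and 927 UPM against 1491 to 2417 UPM, a difference of -1.45 ± 0.24. Nlrc5, the transactivator of class I genes, was at 0 in thymus and at 22.9 to 62.4 UPM in lymph node. The nonclassical genes H2-Q4 and H2-T23 differed by -1.75 ± 0.29 and -1.52 ± 0.29. H2 genes are alike in sequence and may share reads. Tap2, a peptide transporter subunit, was the 1 higher member, at 152 and 162 UPM against 0 to 108 UPM (adjusted p = 0.022, or 0.40 with mouse as a block, and not called with protein-coding scaling or without either thymus mouse).

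The differences were recomputed over T-marker barcodes alone, because lymph node also held B-marker barcodes. Of 5371 genes tested, 822 (15.3%) were called higher and 1031 (19.2%) lower in thymus, with a median difference of 0.32. Of the 944 genes called higher over all barcodes and tested here, 798 were called higher again, and of 1128 called lower 1002 were called lower again. All thymus barcodes were T-marker barcodes, so the thymus side was the same in both and part of this agreement is built in. H2-D1 differed by -1.97, S1pr1 by -3.92, Hmgb2 by 2.70 and Trac by -2.14, against -1.98, -3.85, 2.74 and -1.82 over all barcodes. All 28 tested S phase and mitosis genes were again called higher, 10 of 17 recirculation genes lower and 6 of 8 Gimap genes lower. Of the B cell and MHC class II genes, 12 of 16 and 7 of 9 tested here were called lower, and Cd74 differed by -3.60. Values were smoothed over neighbouring barcodes, and the part of that smoothing in these B cell and class II values was not tested. In the lymph node library with 94.3% T-marker barcodes, Cd74 was at 2269 UPM and H2-D1 at 3271 UPM.

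**Figure D4:**
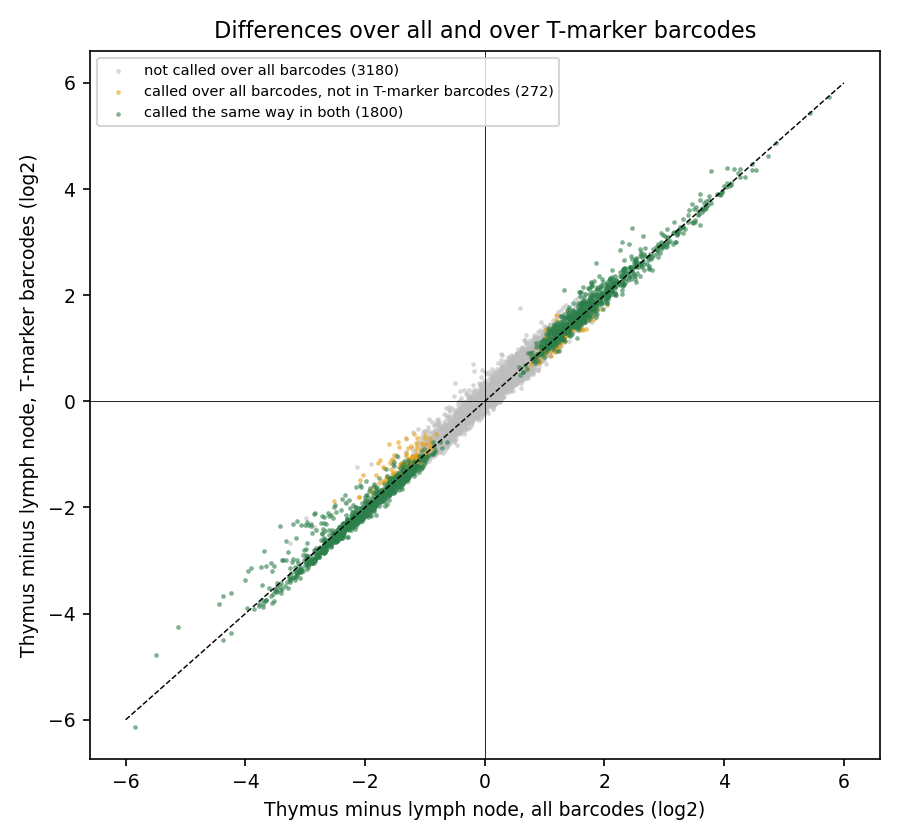
Difference of each gene between thymus and lymph node on log2(UPM + 10), over all barcodes (x axis) and over T-marker barcodes alone (y axis), with the dashed line marking equal differences. Of the genes tested in both, 1800 were called the same way in both (green), 272 only over all barcodes (orange) and 3180 were not called over all barcodes (grey).

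Of 13 listed apoptosis genes 8 passed the filter, and 2 were higher and 2 lower, near the 17.5% and 21.1% of all tested genes. The death receptor Fas was at 71.1 and 90.2 UPM against 0 to 46.6 UPM. The survival genes Bcl2 and Bcl2a1b were at 37.7 and 27.2 UPM against 47.2 to 148 UPM and at 0 and 8.88 UPM against 0 to 73.3 UPM. None of these 3 genes kept its call with mouse as a block (adjusted p = 0.24, 0.23 and 0.21), and 0 apoptosis genes were called there. Bcl2 was not called without either thymus mouse, and without H6 0 apoptosis genes were called. Of 19 measured interferon response genes 10 passed the filter, and of these 4 were lower and 0 higher. Ifi27l2a was at 71.0 and 59.7 UPM in thymus, at 133 to 336 UPM in the healthy lymph nodes and at 929 to 1485 UPM in those of CIA mice, so that the states did not overlap in lymph node. Its pooled difference was -2.48 ± 0.72, and the call was lost without either thymus mouse. The summed interferon list followed the same order, with 360 and 361 UPM in thymus, 509 to 969 UPM in healthy and 2266 to 2932 UPM in CIA lymph nodes. Ifi209 and Ly6a overlapped lymph node, and Ly6a kept its call in 7 of 24 alternatives. The mouse block and each left-out thymus mouse gave 2 calls, and under the block Ifi209 and Ly6a were not called (adjusted p = 0.095 and 0.25).

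Of 14 immediate early and heat shock genes 5 were higher and 0 lower. Fosb, Ier2, Jun and Fos, which respond within minutes to stimulation and to tissue handling, differed by 1.42 ± 0.36, 1.04 ± 0.27, 0.98 ± 0.29 and 1.05 ± 0.35, and the chaperone Hsp90aa1 by 1.08 ± 0.35. With mouse as a block and with protein-coding scaling 1 of the 14 was called in each case, without thymus H6 1 and without thymus S1 2. The part of tissue handling in these values was not tested.

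Markers of other cell types were read as lists. Gzma, a granule protease of cytotoxic lymphocytes, stood alone, at 260 and 357 UPM in thymus against 0 to 31.7 UPM, a difference of 4.46 ± 0.69 (adjusted p = 9.5e-05). The other tested genes of the NK and cytotoxic list, Nkg7, Klrd1 and Ccl5, were lower, by -1.96 ± 0.38, -1.87 ± 0.43 and -1.29 ± 0.37. Ncr1 and the other 5 genes of the list were under the filter. Il2ra, the interleukin 2 receptor chain of early thymocytes and regulatory T cells, was at 95.9 and 65.2 UPM against 0 to 36.8 UPM, while Foxp3 was at 0 in thymus. Ccr9, a chemokine receptor of thymocytes, was at 133 and 85.7 UPM against 0 to 62.8 UPM, and kept its call in 16 of 24 alternatives. Irf8, a myeloid and B cell factor, was lower by -2.89 ± 0.45. Of 4 tested monocyte genes Ly6c2 was lower, by -2.04 ± 0.41 with no call without thymus H6, Ccr2 and Lyz2 were not called, and Plac8 was at 424 and 672 UPM against 70.5 to 636 UPM (adjusted p = 0.074). In T-marker barcodes Plac8 was called higher, with a difference of 1.58 (adjusted p = 0.027). Of 5 tested plasma cell genes Mzb1 and Irf4 were lower, with Irf4 at 0 in thymus, but in T-marker barcodes, where Irf4 did not pass the filter, Mzb1 was not called (adjusted p = 0.095). Jchain, Xbp1 and Ighg1 had no call, with differences of 0.96 ± 0.88, 0.72 ± 0.44 and -1.12 ± 1.23. Fitted with mouse as a block, Il2ra, Ccr9, Nkg7, Ccl5, Mzb1 and Irf4 were not called (adjusted p = 0.10, 0.48, 0.079, 0.10, 0.22 and 0.22). Ccr9 was not called without either thymus mouse, Irf4 without H6, and Mzb1 and Ccl5 without S1.

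Genes of the erythroid and neutrophil lists ranged widely within lymph node. Hbb-bs, a globin chain that may share reads with its near-identical copies, was at 168 and 251 UPM in thymus and at 81.4 to 108280 UPM in lymph node, with the highest values in H7 and in the H4 library ending in CIA (25254 UPM). S100a8, a neutrophil protein, was at 89.8 and 1015 UPM in thymus and at 0 to 2140 UPM in lymph node. Neither list held a called gene. The summed macrophage list was 21.3 and 20.4 UPM in thymus against 0 to 98.5 UPM, and that of dendritic cells, which in thymus was Ccr7 alone, 8.75 and 14.7 against 100.4 to 324 UPM. Without the lymph node of H7 914 genes were called higher and 1142 lower, and without that of H4 922 and 1085.

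Ribosomal protein genes and their pseudogenes went apart. Of 69 ribosomal protein genes that passed the filter (72 listed) 7 were called higher and 7 lower, and they held 12.1% and 11.5% of units in thymus against 8.77% to 12.5% in lymph node. Rpl7 and Rps26 were higher, by 0.98 ± 0.26 and 0.89 ± 0.23, and Rpl9 and Rpl36 lower, by -1.69 ± 0.31 and -1.11 ± 0.30. With protein-coding scaling 0 were higher and 15 lower, and with the mouse block 0 and 2, where Rpl7 and Rps26 were not called (adjusted p = 0.17 and 0.098). Leaving out thymus H6 gave 1 higher and 6 lower, without Rpl7, and leaving out thymus S1 gave 3 and 3, without Rpl36. Of 218 tested ribosomal protein pseudogenes, in contrast, 156 were called lower and 1 higher, and their share of units was 3.52% and 5.19% against 7.94% to 13.8%. Rps19-ps7 was at 118 and 152 UPM in thymus against 1336 to 3381 UPM, a difference of -3.77 ± 0.30. Rpl35-ps1 was at 56.8 and 143 UPM against 756 to 1682 UPM.

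Over all 1146 tested genes annotated as pseudogenes, 641 were lower and 42 higher, with a median difference of -1.33, while of 3860 protein-coding genes 277 were lower and 878 higher, with a median of 0.59. The pseudogenes' share of units was lower in both thymus libraries (18.6% in S1) than in any lymph node library (26.2% to 44.2%). Of the 14 lower genes with the smallest p, 5 are annotated pseudogenes, among them Rps19-ps7, Gm7808, Rpl35-ps1 and Gm9844, and Gm8995 is annotated as a noncoding RNA. A pseudogene can share reads with its parent gene, so these values are uncertain for either. These groups were formed after their values were seen. Cd53, a surface protein of leukocytes in general, also stood among the 14, at 69.0 and 52.0 UPM against 464 to 856 UPM, a difference of -3.13 ± 0.29. Gm8369, annotated as coding, was at 15.7 and 8.05 UPM against 239 to 441 UPM.

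**Figure D5:**
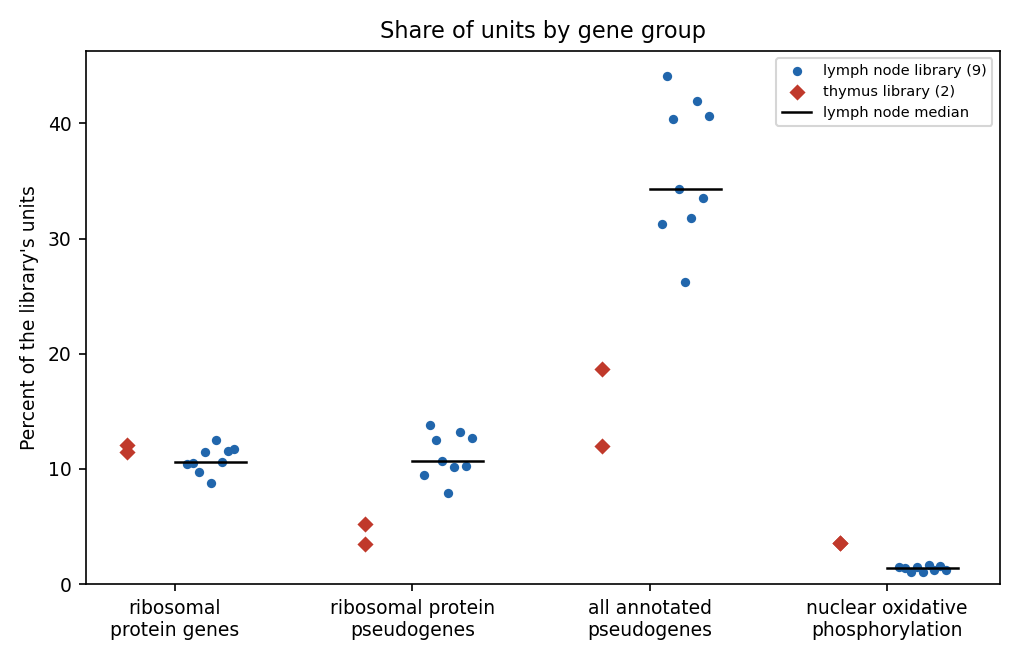
Percent of each library's units in 4 gene groups, with thymus libraries as red diamonds, lymph node libraries as blue points and the lymph node median as a bar. Ribosomal protein genes overlap between organs, both pseudogene groups are lower in both thymus libraries, and oxidative phosphorylation genes are higher.

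The organ difference was also read within each disease state, with 1 thymus library each and no test. Of the 5443 tested genes, H6 thymus lay above all 5 healthy lymph node libraries for 1976 and below them for 1424. S1 thymus lay above all 4 CIA lymph node libraries for 2127 of them and below for 1641. The states shared 1472 higher genes, 74.5% of the healthy list and 69.2% of the CIA list, and 1117 lower genes, 78.4% and 68.1%. How many genes lists of these sizes would share by chance was not tested. The thymus libraries themselves were under 2-fold apart, on UPM + 10, for 4453 of all 5443 tested genes (81.8%), for 903 of the 950 genes called higher (95.1%) and for 726 of the 1148 called lower (63.2%). The calls used both libraries, so these shares are a description. Over all tested genes 2748 were higher in S1 thymus and 2598 in H6 thymus. Of the genes called lower 787 were higher in S1 and 275 in H6, and of those called higher 385 and 565. S1 thymus also held the larger pseudogene share.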

How the data were processed

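Single-cell RNA of 8 organs of DBA1/J mice was measured with Seq-Well. The authors aligned reads to GRCm38 with STAR, counted transcripts with the Drop-seq tools, removed barcodes with few reads, transcripts or genes or a large mitochondrial share, and smoothed each barcode over its nearest neighbours. The deposited matrix therefore holds whole-number sums over neighbours, taken here as signal and called units, not transcript counts, so no count model, counting interval or detection limit was used and true depth is unknown. It held 23013 rows, 21404 with a gene symbol, and 8282 barcodes in 30 libraries.

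Units were summed per library and scaled to a library total of 1e6 (UPM). The range rule, under which both thymus libraries lie outside all 9 lymph node libraries, is a description with no test. For tests, libraries of a mouse and organ were summed, and log2(UPM + 10) was compared with limma 3.58.1 in R 4.3.3 (moderated variances with a mean trend, two-sided, Benjamini-Hochberg adjustment, call at an adjusted p under 0.05) over genes whose mean over the mice reached 25 UPM. Errors are SE of the difference unless stated. Replicates were separate mice by their labels, and with 2 thymus mice the spread rests mostly on lymph node.

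The mice H6 and S1 gave both organs, so the organs are paired in them by animal. Deviations of their paired libraries from the organ means correlated at 0.07 and -0.13 across genes. The block was fitted with every library as a sample and mouse as a term. The genes named were the 14 with the smallest p in each direction that also lay outside the range, up to 6 per list, and members counted among 5 or fewer. The members and lists were chosen with earlier results of these data known. The 2 pseudogene groups and protein-coding scaling were added after the values were seen. The fit was also run on simulated data, whose outcome is not given here. Alternatives were other scalings, filters, added constants, covariates, library endings, barcodes and left-out mice. Start site windows came from RefSeq tables of GRCm38.p6 and were matched by symbol. Some genes that the naming rule gave are not reported here.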

Additional observations from a re-analysis of the deposited data

Results flagged for a closer look

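In 12 of 123 genes checked over the 7 lymph node mice, 1 mouse stood far from the others, where chance flags about 1 in 20 groups. In H7, Arpp21 was at 27.3 UPM against 0 in every other mouse and H2-Ob at 98.5 against 61.1 UPM in the nearest. In S7, Lockd was at 81.4 against 42.4 UPM. In H3, Tcf7 was the highest at 380 against 252 UPM and H2-Q4 the lowest at 204 against 279 UPM. In S1, Cenpe was at 34.2 against 9.32 UPM and Irf4 at 100.2 against 43.8 UPM. In H6, Dapl1 was at 1580 against 885 UPM and Klrd1 at 222 against 109 UPM. In H4, Fyn was at 149.6 against 77.6 UPM. In S2, the ribosomal protein genes Rpl9 and Rpl5 were at 473 against 305 UPM and at 271 against 169 UPM. Both thymus values of Arpp21, Lockd, Tcf7 and Cenpe lay above these high lymph node values.

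By disease state, 63 of the 5443 tested genes lay above the healthy lymph node range in H6 thymus and below the CIA lymph node range in S1 thymus. The opposite held for 34 genes. The difference between states was not tested, since each state has 1 thymus library, and state, mouse and library ending cannot be told apart there.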

How the results depend on the processing

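Over the 25 alternatives for the 125 named genes, 2821 differences kept their direction and call, 258 lost their call and 0 changed sign. The main counts were 950 genes called higher, 1148 called lower, 1259 above and 988 below the range. No filter gave 1947 higher and 2493 above, and a filter of 100 UPM gave 441, 717, 462 and 620, with other numbers of genes tested. With mouse as a replicate block, 201 were called higher and 500 lower. This block draws on the pairing in H6 and S1 and on the repeat lymph node libraries of H4 and S7. Under it 42 of the 125 named genes lost their call at an adjusted p of 0.0535 to 0.479. Libraries ending in CIA alone gave 270, 724, 2108 and 1661, and those ending in 2CIA alone 86, 364, 1765 and 1436, each with 1 thymus library. Protein-coding scaling, added after seeing the data, gave 375 higher and 623 above. Leaving out 1 mouse at a time gave 285 to 1015 higher, 613 to 1160 lower, 1303 to 1639 above and 1009 to 1302 below, where the lowest counts of calls came without thymus H6 (285 and 613). Without thymus S1 431 were called higher. Trimmed mean scaling gave 1041 higher and 1132 lower, median of ratios scaling 863 and 1184, and state as a covariate 935 and 1153. With 2 thymus mice, smoothed values and unknown depth, small differences and genes near 25 UPM were not resolved.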

Other observations

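Of the 988 genes below the lymph node range, 50 were at 0 in both thymus libraries, and 15 also lay below each of the 19 libraries of the other organs. The 3 members of the MHC class I list among these 15 were H2-D1, H2-K1 and H2-Q4. On the upper side, 482 of the 5443 tested genes (8.86%) lay above every other library of the series. Among them were 22 of 77 oxidative phosphorylation genes, 9 of 16 chromatin genes and 10 of 69 ribosomal protein genes, and with protein-coding scaling 0 ribosomal protein genes were called higher and 15 lower.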
